A study of Homo sapiens with 6 samples.

Results

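Gluconeogenesis and glucose release were followed through 9 genes in luciferases-expressing HepG2 cells, with or without sedanolide at 100 μM for 24 h. The genes were G6PC1, G6PC3, SLC37A4, PC, PCK1, FBP1, PPARGC1A, TAT and SLC2A2, and all 9 were found among the 61541 Ensembl genes of the count table. The set was selected on measured values, since it was built around the fold change of G6PC1 in this same comparison of sedanolide with control. The other genes were taken by name for their place in the pathway. The changes of these genes between sedanolide and control are therefore a description. Intervals rest on the spread between libraries. Whether a gene of the set passed the thresholds used for all genes is stated for orientation and is no evidence of a change. RNA-seq was performed on 3 libraries per condition. HepG2 is a human hepatoblastoma line, and the cells used here are an engineered derivative in which a mouse artificial chromosome carries the SLR3 luciferase behind antioxidant response elements and the ELuc luciferase behind the TK promoter. Control and treated cells both carry these reporters and were cultured in DMEM with serum and sodium pyruvate, and sedanolide is a phthalide found in celery. The labels do not say whether the control cells received the solvent or whether the replicates were separate cultures, so the spread between libraries may be technical.

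Gluconeogenesis makes glucose from lactate, amino acids and glycerol, mainly in liver and kidney, and shares its reversible steps with glycolysis. Its particular enzymes bypass the irreversible glycolytic steps, and the last of them, glucose-6-phosphatase, removes the phosphate in the endoplasmic reticulum so that glucose can leave the cell. Transcription of these genes is raised by glucagon through cAMP and by glucocorticoids, and lowered by insulin, which keeps FOXO1 out of the nucleus.

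Total expected counts were between 16420258 and 22940963 in control and between 19027265 and 26714853 in sedanolide-treated libraries. Expression is given as CPM, the expected count scaled to the library total, with TMM factors that correct for library composition, with SD over n = 3 libraries. Component 1 of a principal component analysis held 56.1% of the variance and did not follow the treatment. Control 1, control 2 and sedanolide 3 lay on one side (side A), and control 3, sedanolide 1 and sedanolide 2 lay on the other (side B). Mitochondrial transcripts were 1.43% to 2.15% of counts on side A and 4.23% to 5.22% on side B. Hepatocyte markers were present, as all 15 of the list were expressed, ALB at 803 to 1250 CPM and AFP at 4970 to 18400 CPM. Their summed level was 39080 to 56830 CPM in control and 29800 to 47590 CPM in sedanolide-treated libraries. Of 18 markers of other liver cell types, 12 were too low to test. COL1A2, LUM, VWF, KDR and MARCO had 0 counts in every library, which allows up to 3 counts per library as counting error alone, and PTPRC had at most 3 counts. The 6 tested were LYZ (467 to 1320 CPM), ACTA2 (65.2 to 89.1), PDGFRB (5.16 to 23.8), CD68 (8.85 to 14.7), PECAM1 (3.77 to 5.29) and CD14 (1.43 to 3.82). Their log2 fold changes were above 0 in 3 (CD68 0.36, ACTA2 0.16 and PECAM1 0.07) and below 0 in 3 (PDGFRB -1.42, LYZ -0.85 and CD14 -0.62). The median was -0.27, and 0 were past both thresholds. Treated libraries lay entirely below control for 3 and above for 1, against 9.65% and 8.69% of all genes tested. The summed level of the 18, most of it LYZ, was 912 to 1420 CPM in control and 584 to 856 CPM in sedanolide-treated libraries, and its part in the results was not tested.

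The promoter of G6PC1 is shown because this gene had the largest difference of the set and because it is a classical target of the hormones named above. The stretch covers 250 bases before and 50 bases after the RefSeq start (chr17:42900549-42900848, plus strand, GRCh38.p14). Capitals mark matches to the motifs searched.
G6PC1: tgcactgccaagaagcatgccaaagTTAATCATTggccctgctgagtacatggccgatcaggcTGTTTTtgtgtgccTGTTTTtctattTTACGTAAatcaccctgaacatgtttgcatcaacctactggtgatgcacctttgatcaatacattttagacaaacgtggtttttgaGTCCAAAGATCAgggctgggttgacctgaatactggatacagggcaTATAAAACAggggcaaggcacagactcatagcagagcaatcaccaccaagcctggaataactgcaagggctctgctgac
SLC2A2, also lower in the treated libraries, had no match to any of these motifs in the corresponding stretch (chr3:171026671-171026970, minus strand), which says only that these letters are not in this window.
SLC2A2: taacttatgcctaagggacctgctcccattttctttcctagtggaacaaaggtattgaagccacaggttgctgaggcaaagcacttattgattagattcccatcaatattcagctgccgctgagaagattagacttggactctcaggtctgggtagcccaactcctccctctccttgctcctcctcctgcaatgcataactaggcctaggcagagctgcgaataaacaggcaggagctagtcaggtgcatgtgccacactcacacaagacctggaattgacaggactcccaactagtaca
For contrast, the first of the 3 RefSeq starts of G6PC3, the widely expressed paralog, is given (chr17:44070423-44070722, plus strand).
G6PC3: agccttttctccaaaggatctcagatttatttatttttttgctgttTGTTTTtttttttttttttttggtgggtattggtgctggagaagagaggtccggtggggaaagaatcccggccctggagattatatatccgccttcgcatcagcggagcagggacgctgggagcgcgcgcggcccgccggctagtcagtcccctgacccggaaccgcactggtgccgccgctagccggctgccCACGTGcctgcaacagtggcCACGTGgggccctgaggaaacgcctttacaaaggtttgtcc
SLC37A4 has 2 RefSeq starts, and the outer one had no match to any of these motifs. The inner one, further within the gene, is given since it carries a TATA box (chr11:119029431-119029730, minus strand).
SLC37A4: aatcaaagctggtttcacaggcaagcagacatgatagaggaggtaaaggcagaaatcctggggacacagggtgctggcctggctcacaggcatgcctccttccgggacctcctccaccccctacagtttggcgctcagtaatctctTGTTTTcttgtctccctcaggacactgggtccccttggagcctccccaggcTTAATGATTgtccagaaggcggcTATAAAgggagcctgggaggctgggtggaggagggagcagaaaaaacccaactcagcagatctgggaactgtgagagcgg

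In all, 10 motifs were searched on both strands, and each match is a description and not a binding site. Positions are counted from the RefSeq start, with negative numbers before it. G6PC1 had TTACGTAA, a variant of the cAMP response element, from -161 to -154, a motif found in 0.125% of the 35116 RefSeq promoters of this length. Upstream of it lay copies of TGTTTT, the core of the insulin response sequence bound by FOXO proteins, starting at -187 and -173. Another match to this core, on the minus strand from -26 to -21, overlaps the TATA box (TATAAA, 11.5% of promoters) from -29 to -24. The core is common, being present in 19.3% of promoters. Among the other members it was found at G6PC3, at a start of PC and at the inner starts of SLC37A4 and PPARGC1A. TTAATNATT, the core of the HNF1 site, was found from -225 to -217 in G6PC1 and from -53 to -45 at the inner start of SLC37A4, and in 1.31% of all promoters. The direct repeat with a spacing of 1 base (DR1) that HNF4 binds was found from -75 to -64 in G6PC1 and in 1.42% of promoters. The consensus cAMP response element TGACGTCA (1.85% of promoters) and the FOXO element TGTTTAC (3.42%) had no match in any of the 7 members with a promoter in the table. The antioxidant response element core TGACNNNGC, the motif of NRF2, was present in 13.3% of promoters, and among the members only at the outer start of PPARGC1A, from -139 to -131. That start (chr4:24472856-24473155, minus strand) lies far upstream of the GENCODE span of the gene, 23755041 to 23904089. Whether it is used in these cells was not tested. The glucocorticoid receptor half-site TGTTCT (14.8% of promoters) was found only at PC among the members, and the E-box CACGTG (7.26%), bound by USF and related factors, at G6PC3 and at the outer start of PPARGC1A.

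Glucose-6-phosphatase is a system of a catalytic subunit and a transporter that brings glucose 6-phosphate into the endoplasmic reticulum. G6PC1 (ENSG00000131482), the catalytic subunit of liver and kidney, lies on chromosome 17 of GRCh38 from 42900797 to 42914438 and has 5 exons. It was 13.9, 18.5 and 9.44 CPM in control 1 to 3 and 1.83, 1.89 and 3.09 CPM in sedanolide 1 to 3. The lowest control library was above the highest treated library. The counts behind these values were 230, 436 and 167 in control and 34, 49 and 78 in sedanolide-treated libraries. The mean was 13.9 ± 4.51 CPM in control and 2.27 ± 0.712 CPM in treated cells (SD, n = 3). The fitted log2 fold change was -2.61 (95% interval -3.36 to -1.86), which leaves 16.4% of the control level. It was the sixth lowest fold change of the 14102 genes tested. Within each condition the library or libraries of side A had the higher values. Within side A the log2 difference was -2.34 and within side B it was -2.29, from log2 CPM with a prior count of 2, which draws low values together. With the side as a term in the edgeR fit the log2 fold change was -2.37, so -2.61 is also affected by the uneven spread of conditions over the sides.

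G6PC3 (ENSG00000141349, chromosome 17, 44070620 to 44082151), the catalytic subunit found in most tissues, did not share this pattern. Its values were 81.6, 64.8 and 78.5 CPM in control and 83.7, 77.3 and 72.2 CPM in sedanolide-treated libraries, and the groups overlapped. The log2 fold change was 0.05 (95% interval -0.26 to 0.36). Its exons share 1826 bases with HDAC5 on the opposite strand, whose counts were 146% of those of G6PC3 and whose log2 fold change was -0.50. Whether the counting used the strand is not stated, and the part of such overlaps in the values of G6PC3, SLC37A4 and FBP1 was not tested. SLC37A4 (ENSG00000137700, chromosome 11, 119023751 to 119030906), the glucose 6-phosphate transporter, had 70.5, 65.2 and 69.0 CPM in control and 58.6, 59.6 and 55.2 CPM in treated libraries. All treated libraries lay below all control libraries, but the difference was small, a log2 fold change of -0.24 (95% interval -0.48 to 0.00). SLC37A4 shares 868 exon bases with TRAPPC4 on the opposite strand, whose log2 fold change was -0.04.

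**Figure D1:**
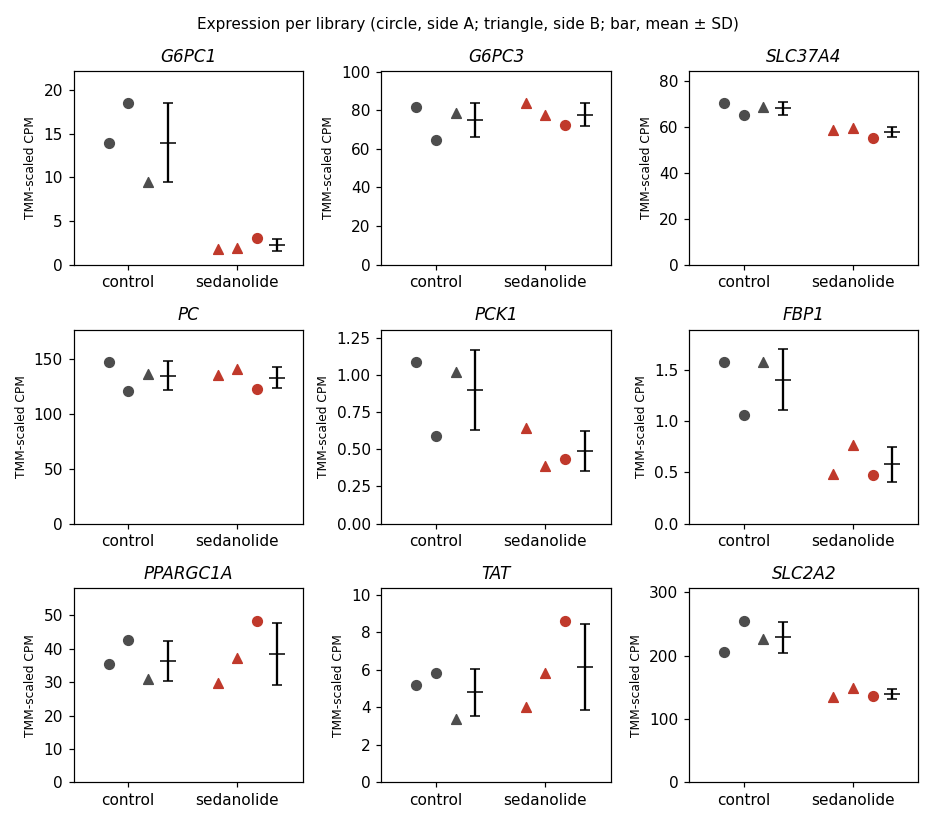
TMM-scaled CPM of the 9 genes in each library (gray, control 1 to 3 and red, sedanolide 1 to 3, from left to right in each group), with circles for side A, triangles for side B and bars for mean ± SD (n = 3). G6PC1 was at 9.44 CPM or more in control and at 3.09 CPM or less in treated libraries, and SLC2A2, FBP1 and SLC37A4 also showed no overlap.

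The deposited table of log2(TPM + 1), in which TPM is a level per transcript length, holds 6 of the 9 genes and allows the catalytic subunits to be compared. G6PC1 was 10.3, 12.2 and 5.71 TPM in control and 0.66, 1.61 and 2.36 TPM in sedanolide-treated libraries, whereas G6PC3 was between 72.5 and 83.8 TPM in all libraries. G6PC3 thus exceeded G6PC1 in every library, by 6.22 to 13.5 times in control and by 33.1 to 118 times in treated libraries. G6PC1 made up 6.87% to 13.9% of the TPM of both subunits in control and 0.843% to 2.93% in treated libraries. The 118-fold ratio belongs to sedanolide 1, in which G6PC1 had 0.361 TPM per CPM, against 0.605 to 0.851 in the other libraries. SLC37A4 was 57.7 to 62.1 TPM in control and 42.4 to 49.5 TPM in treated libraries, so the transporter was also above G6PC1 in every library.

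**Figure D2:**
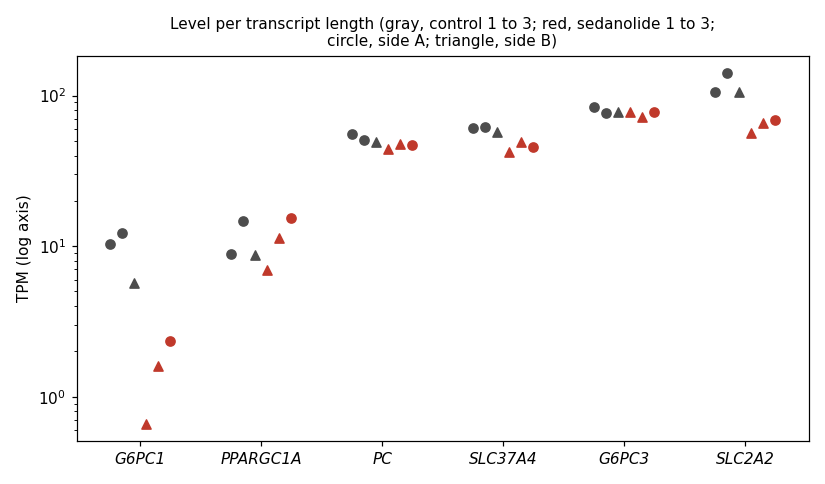
TPM on a log axis for the 6 genes in the deposited log2(TPM + 1) table, ordered by mean control level, with gray for control and red for sedanolide libraries, circles for side A and triangles for side B. G6PC1 went from 5.71 to 12.2 TPM in control to 0.66 to 2.36 TPM in treated libraries, and G6PC3 stayed within 72.5 to 83.8 TPM.

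The enzymes that lead from pyruvate to fructose 6-phosphate differed in level. PC (ENSG00000173599, chromosome 11, 66848417 to 66958386), which carboxylates pyruvate in mitochondria, had 147, 121 and 136 CPM in control and 135, 141 and 122 CPM in treated libraries. The groups overlapped, with a log2 fold change of -0.03 (95% interval -0.32 to 0.27). PCK1 (ENSG00000124253, chromosome 20, 57561080 to 57568121), the cytosolic phosphoenolpyruvate carboxykinase, was barely expressed, with 18, 14 and 18 counts in control and 12, 10 and 11 counts in treated libraries. These counts correspond to 1.09, 0.593 and 1.02 CPM against 0.645, 0.386 and 0.436 CPM, and sedanolide 1 lay above control 2. FBP1 (ENSG00000165140, chromosome 9, 94603133 to 94640249), fructose-1,6-bisphosphatase, had 26, 25 and 28 counts in control and 9, 20 and 12 counts in treated libraries. The corresponding 1.58, 1.06 and 1.58 CPM and 0.484, 0.772 and 0.476 CPM did not overlap. Fitted log2 fold changes were -0.88 (95% interval -1.74 to -0.01) for PCK1 and -1.25 (95% interval -2.0 to -0.50) for FBP1. Both met the filter on low counts in all 3 control libraries but in only 1 (PCK1) and 2 (FBP1) treated libraries, so they were tested through the group in which they are higher. FBP1 shares 283 exon bases with PCAT7, a noncoding transcript of the other strand with 1087 counts over all libraries, 909% of those of FBP1, and a log2 fold change of -0.31.

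SLC2A2 (ENSG00000163581, chromosome 3, 170996347 to 171026743) encodes GLUT2, the low-affinity transporter through which hepatocytes take up and release glucose. It had 206, 255 and 226 CPM in control and 135, 149 and 136 CPM in sedanolide-treated libraries, with no overlap. The mean was 229 ± 24.3 CPM in control and 140 ± 7.68 CPM in treated cells (SD, n = 3). The fitted change on the log2 scale was -0.71 (95% interval -1.01 to -0.42), or 61.0% of the control level, and -0.75 and -0.68 within sides A and B. Per transcript length it was the highest of the set in control cells, at 105 to 141 TPM, and it was 56.5 to 68.9 TPM in treated libraries, where its range came close to the 72.5 to 78.1 TPM of G6PC3.

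The coactivator and the amino acid enzyme had overlapping groups and varied with the side of the library. PPARGC1A (ENSG00000109819, chromosome 4, 23755041 to 23904089) encodes PGC-1α, a coactivator of FOXO1 and HNF4A on gluconeogenic promoters. It had 35.4, 42.7 and 31.0 CPM in control and 29.8, 37.3 and 48.4 CPM in treated libraries, overlapping groups with a log2 fold change of 0.08 (95% interval -0.40 to 0.57). TAT (ENSG00000198650, chromosome 16, 71565660 to 71577092), tyrosine aminotransferase, a glucocorticoid-induced enzyme that feeds tyrosine carbon into the pathway, had 5.21, 5.80 and 3.39 CPM in control and 4.03, 5.83 and 8.60 CPM in treated libraries. Its log2 fold change was 0.36 (95% interval -0.39 to 1.11). In both genes sedanolide 3, the treated library of side A, had the highest value, and control 3, the control library of side B, the lowest control value. Within sides A and B the log2 differences were 0.64 and 0.50 for TAT and 0.32 and 0.10 for PPARGC1A. With the side as a term in the edgeR fit the log2 fold changes were 0.60 for TAT and 0.21 for PPARGC1A, and neither gene was past both thresholds.

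Of the 9 genes, 1 (G6PC1) was past both thresholds applied to all genes, an FDR of 0.05 and at least a 1.5-fold change, lower in treated cells. Over all genes tested the share past both was 0.667%, or 0.312% lower and 0.355% higher. Treated libraries lay entirely below control in 4 of the 9 (G6PC1, SLC37A4, FBP1 and SLC2A2) and entirely above in 0, against 9.65% and 8.69% of all genes. Nothing is read from these counts, since the set was selected on this comparison. The median log2 fold change of the 9 was -0.24, and that of all genes tested was 0.01. Levels of all 9, as mean CPM per kilobase of the canonical transcript (GENCODE 44) in control cells, ran from SLC2A2 at 72.0 over G6PC3 at 47.7, SLC37A4 at 32.4, PC at 31.4, PPARGC1A at 5.79, G6PC1 at 3.34, TAT at 1.22 and FBP1 at 0.957 to PCK1 at 0.208. In treated cells G6PC1 was at 0.545 on this scale, between TAT at 1.56 and FBP1 at 0.392. On this scale SLC37A4 and PC, and likewise TAT and FBP1, overlapped between control libraries, as did G6PC1 and FBP1 between treated libraries.

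**Figure D3:**
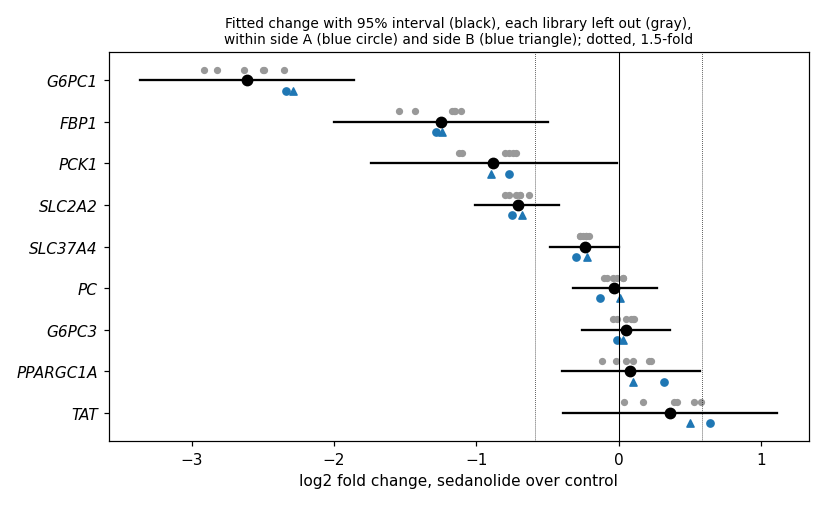
Log2 fold change of sedanolide over control for the 9 genes, with the fitted value and its 95% interval in black, the 6 leave-one-out fits (1 library removed in each) in gray, and the difference within side A (blue circle) and side B (blue triangle) from log2 CPM. The interval of G6PC1 ran from -3.36 to -1.86, those of G6PC3, PC, PPARGC1A and TAT spanned 0, and dotted lines mark 1.5-fold.

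The position of G6PC1 relative to the thresholds also depended on single libraries, as it was past both without control 3 and without sedanolide 3, but not without control 1 (log2 fold change -2.63), control 2 (-2.35), sedanolide 1 (-2.49) or sedanolide 2 (-2.50). Its log2 fold change stayed between -2.91 and -2.35 in these 6 fits. The hepatocyte markers were also lower in treated cells, with treated libraries entirely below control for 6 of 15 genes (9.65% of all genes tested) and a median log2 fold change of -0.29, and 0 of 15 were past the thresholds. Per 1000 CPM of summed hepatocyte markers, a scale chosen after the values were seen, G6PC1 was 0.275, 0.325 and 0.242 CPM in control and 0.0613, 0.0521 and 0.0650 CPM in treated libraries, a log2 difference of -2.23 without overlap. SLC2A2 on this scale was 4.08, 4.48 and 5.79 CPM against 4.52, 4.09 and 2.86 CPM, and its groups overlapped. The groups of SLC37A4 and FBP1, apart in CPM, also overlapped on this scale, with log2 differences of 0.14 and -0.92. PPARGC1A was 0.699 to 0.794 CPM in control and 1.00 to 1.03 CPM in treated libraries on this scale. TAT was 0.0868 to 0.103 CPM in control and 0.135 to 0.181 CPM in treated libraries, and both genes were without overlap. In CPM both overlapped, with log2 fold changes of 0.08 and 0.36. The marker sum was 29800 to 39080 CPM on side B and 47590 to 56830 CPM on side A. Dividing by a sum that ranged lower in treated cells raises treated values against control, so no rise is read from this scale. The share of all genes without overlap on it was not computed. AFP and APOB each made up much of the marker sum, at 16.7% to 32.4% and 21.8% to 30.4%. Fewer cells expressing a gene and less RNA per cell cannot be told apart in these bulk libraries.

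The genes most like G6PC1 over the 6 libraries, by Pearson's r of log2 CPM among 12776 genes with a mean of at least 1 CPM, were PBXIP1 (0.998), SQLE, TMEM8B and TSC22D1 (0.996 each) and TCF23 (0.995). These points share libraries, and r of at least 0.9 in size was reached by 8.40% of the genes. Among the members r was 0.94 for SLC2A2 and 0.81 for SLC37A4, 0.12 for PPARGC1A, -0.08 for PC, -0.14 for TAT and -0.42 for G6PC3, and PCK1 and FBP1 had a mean under 1 CPM. With the mean of each condition taken off, 35.2% of genes reached 0.9, and the 5 highest were GOLGA8A, ENSG00000287670, ENSG00000267002, EIF2AK3 and LINC00938, at 0.998 to 0.999. On that scale r was 0.91 for both PPARGC1A and TAT, 0.22 for SLC2A2, -0.69 for PC, -0.76 for G6PC3 and -0.78 for SLC37A4.

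Isoforms of these genes were examined next. PCK2, the mitochondrial phosphoenolpyruvate carboxykinase, was the main form of this enzyme by transcript level. It had 214 to 278 CPM in control and 188 to 257 CPM in treated libraries and a log2 fold change of -0.14 (95% interval -0.53 to 0.24). G6PC2, the subunit of pancreatic islets, and FBP2, the muscle bisphosphatase, were too low to test. PPRC1, a relative of PPARGC1A, had 59.6 to 66.3 CPM in control and 78.5 to 87.9 CPM in treated libraries without overlap, a log2 change of 0.39 (adjusted p = 0.226). PPARGC1B had a log2 change of 0.68 (adjusted p = 0.445) and its groups overlapped.

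Of 244 other genes of glucose handling and its control, 214 were tested, and 2 were higher and 3 were lower past both thresholds, 2.34% of those tested against 0.667% of all genes. The lists were drawn up with earlier results of these libraries known, so their counts are not independent evidence. The higher genes act on glucose phosphorylation, the step opposite to glucose-6-phosphatase. GCKR, the regulatory protein that binds glucokinase in the nucleus, was 4.91, 5.85 and 4.63 CPM in control and 13.1, 13.1 and 12.3 CPM in treated libraries. HKDC1, a hexokinase, was 15.9, 15.4 and 18 CPM in control and 37.3, 36.3 and 35.8 CPM in treated libraries. Both rose without overlap, with log2 fold changes of 1.32 (standard error 0.143) and 1.15 (standard error 0.117) and an adjusted p of 0.0172 for each by the quasi-likelihood test of edgeR. In the leave-one-out fits GCKR was past both thresholds only without sedanolide 3, and HKDC1 only without control 3 or sedanolide 3, while their log2 fold changes stayed between 1.25 and 1.43 and between 1.10 and 1.22.

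The genes that fell were DEPP1 and IGFBP1, targets of FOXO1, and SGK1, a kinase gene induced by glucocorticoids. DEPP1 was 168, 151 and 173 CPM in control and 54.5, 50.1 and 50.3 CPM in treated libraries, a log2 change of -1.67 (adjusted p = 0.00324). IGFBP1 was 941, 1130 and 918 CPM against 499, 460 and 542 CPM, a log2 change of -0.99 (adjusted p = 0.0300). SGK1 was 89.2, 99.3 and 95.6 CPM against 31.7, 31.9 and 31.0 CPM, a log2 change of -1.59 (adjusted p = 0.00324). In all 3 the groups were apart. DEPP1 and SGK1 were past both thresholds in 4 of 6 leave-one-out fits, the exceptions being those without control 1 and without sedanolide 2, and IGFBP1 only in the fit without sedanolide 3. IGFBP1 kept a log2 fold change between -1.05 and -0.89 in these fits.

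**Figure D4:**
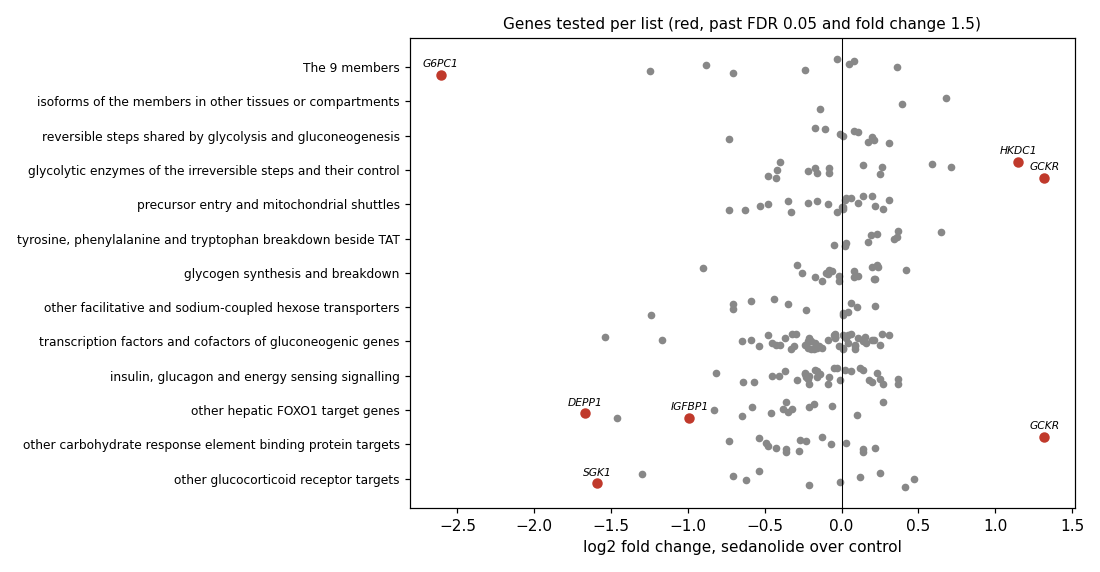
Log2 fold change of sedanolide over control for each gene tested, by list, with genes past both thresholds in red. Besides G6PC1, only GCKR, HKDC1, DEPP1, IGFBP1 and SGK1 are red, and GCKR belongs to 2 lists.

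By list, 2 of 16 other FOXO1 targets tested were past both thresholds, both lower (0.312% of all genes), and 14 of the 16 had a log2 fold change below 0 with a median of -0.37. Over all genes tested 6948 of 14102 were below 0, and among the hepatocyte markers 13 of 15 were, with a median of -0.29, and the part of the markers in the values of this list was not tested. PIK3IP1, an inhibitor of PI3 kinase, was 5.99 to 9.36 CPM in control and 1.02 to 4.88 CPM in treated libraries. Its log2 change was -1.46 (adjusted p = 0.297), and within each condition side A had the higher values. Of 11 glucocorticoid receptor targets tested, 1 was past both thresholds (SGK1), with a median of -0.21. FKBP5, a glucocorticoid-induced chaperone, lay higher without overlap at a log2 change of 0.41 (adjusted p = 0.232), and TSC22D3 lower at -0.71 (adjusted p = 0.465). Of 17 targets of the carbohydrate response element binding protein, a group that includes G6PC1 in hepatocytes, 1 was past both (GCKR) and the median was -0.27. PKLR, the liver pyruvate kinase, had a log2 change of -0.43 (adjusted p = 0.271) and PNPLA3 of -0.49 (adjusted p = 0.224). ACACA, acetyl-CoA carboxylase, had a log2 change of 0.14 (adjusted p = 0.645).

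Among 51 transcription factors and cofactors tested, 0 were past both thresholds. Their median was -0.09, and treated libraries lay entirely below control for 11 and above for 3, against 9.65% and 8.69% of all genes. KLF15, a factor that promotes amino acid use for gluconeogenesis, was 3.01 to 3.39 CPM against 1.82 to 2.31 CPM, a log2 change of -0.65 (adjusted p = 0.228). CRTC2, the cAMP-responsive coactivator, and KAT2A, an acetyltransferase of PGC-1α, lay above control without overlap at log2 fold changes of 0.14 (adjusted p = 0.667) and 0.26 (adjusted p = 0.379). Of 34 genes of insulin, glucagon and energy signaling, 0 were past both, with a median of -0.15. SIK3 and GRB10 each had a log2 change of 0.37 (adjusted p = 0.254 and 0.383), and PIK3CB and SIK2 of -0.24 and -0.23 (adjusted p = 0.483 and 0.440).

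In the metabolic lists, 2 of the 16 genes tested of the irreversible glycolytic steps were past both thresholds (GCKR and HKDC1), with a median of -0.08. PDK2, an inhibitory kinase of pyruvate dehydrogenase, had a log2 change of -0.40 (adjusted p = 0.292). None of the 11 reversible steps (median 0.08), 22 genes of precursor entry and shuttles (0.01), 10 of aromatic amino acid breakdown (0.21), 20 of glycogen metabolism (-0.02) or 13 other hexose transporters (-0.23) was past both thresholds by edgeR. GLUD1, glutamate dehydrogenase, came near, at 767 to 841 CPM in control and 442 to 516 CPM in treated libraries, a log2 change of -0.73 (adjusted p = 0.0513), and GPT2, an alanine aminotransferase, was at -0.63 (adjusted p = 0.126). MDH2, malate dehydrogenase of mitochondria, lay above control at 0.20 (adjusted p = 0.524), and PGK1 below at -0.11 (adjusted p = 0.712). HPD and PCBD1, which act beside TAT in tyrosine and phenylalanine breakdown, were at 0.37 (adjusted p = 0.401) and 0.17 (adjusted p = 0.581). The glycogen enzymes PYGL and GBE1 were at -0.26 (adjusted p = 0.364) and -0.29 (adjusted p = 0.451), and PGM2 at 0.24 (adjusted p = 0.477). The sodium-coupled sugar transporters SLC5A9 and SLC5A2 were at -0.71 (adjusted p = 0.0622) and -1.24 (adjusted p = 0.253), the latter at 2.36 CPM or less in every library.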

How the data were processed

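RNA-seq was performed on 3 control and 3 sedanolide-treated libraries. Reads were trimmed (Trimmomatic), aligned (STAR, GRCh38) and quantified (RSEM) by the authors. Versions, annotation release and strand setting are not given in the sources used here. The authors deposited expected counts from RSEM, not normalized, and log2(TPM + 1) for 11006 rows, whose filter is not stated. TPM are scaled to transcript length and library total.

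Counts were rounded, filtered with filterByExpr (minimum count of 10), normalized by TMM and tested with the robust quasi-likelihood method of edgeR 4.0.16 in R 4.3.3, with condition as the only term. All genes entered the fit. The thresholds were a Benjamini-Hochberg FDR under 0.05 and at least a 1.5-fold change. Alternatives used DESeq2 1.42.0, limma 3.58.1, other normalizations and filters, a replicate term, the side on component 1 as a term, each library left out, and the deposited log2 table. The procedure was tested on simulated data. Positions were taken from GENCODE 44, in which 61369 identifiers were found, and promoters from RefSeq (GRCh38.p14), which held 7 of the 9 members. Members and gene lists, written from general knowledge, were chosen with earlier results of these data known. Of each list, genes past both thresholds and up to 2 with the largest and 2 with the smallest log2 fold changes among those without overlap are named, and all isoforms. A gene that this rule names is not reported here. The p-values weigh the difference between conditions against the spread between libraries only, which is estimated with help from all genes.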

Additional observations from a re-analysis of the deposited data

How the results depend on the processing

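How many genes were called depended on the test and on single libraries. Instead of 94 genes, 326 were called with DESeq2 (129 higher, 197 lower), 379 with the side as a term (150 higher, 229 lower), 157 with every gene of at least 1 count and 60 in the deposited log2(TPM + 1) table. With the replicate block, numbers shared by control and treated libraries that did not pair them (correlations of deviations -0.13, -0.30 and -0.73), 0 genes, 0 members and 0 other pathway genes were called, with 770 genes at an unadjusted p-value under 0.05. The leave-one-out fits called 0 to 135 genes, 0 to 1 members and 0 to 7 other pathway genes. Those without control 1 and without sedanolide 2 called 0, with 1065 and 887 genes below 0.05 before adjustment. Members called were 2 (G6PC1 and SLC2A2) with DESeq2 and with the side as a term, and 0 in the deposited table with a pseudocount of 1 or 0.1, where the log2 fold change of G6PC1 was -2.04 and -2.62. Other pathway genes called were 9 with DESeq2 and 11 with the side as a term, instead of 5. G6PC1 was lower in 17 of 17 alternatives (-2.91 to -2.04), and called in 10. The alternative without a fold change cutoff, counted among both, is the main fit read at the FDR alone, so it is no separate check. As G6PC1 was selected on this comparison, its direction in these fits is a description. The sign of small changes was not stable. In the leave-one-out fits PC ran from -0.10 to 0.03 (above 0 without control 1 and without sedanolide 3), G6PC3 from -0.04 to 0.11 (below 0 without control 2 and without sedanolide 1) and PPARGC1A from -0.12 to 0.23 (below 0 without control 3 and without sedanolide 3). G6PC3 was at -0.06 in the deposited table with either pseudocount. The cause was not tested. Median-of-ratios factors, library size only, limma-voom, a filter of 0.5 CPM and no fold change cutoff kept the number of calls within 1.5 times. At these depths PCK1 and FBP1 rest on 28 counts or fewer per library, which limits both.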
